A study of Mus musculus with 6 samples.

Results

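The hedgehog genes examined here were 9 named components of one signalling pathway: the ligands *Shh*, *Ihh* and *Dhh*, the receptor *Ptch1*, the ligand-binding protein *Hhip*, the transducer *Smo* and the transcription factors *Gli1*, *Gli2* and *Gli3*. They were chosen by name, not by their values, and each symbol was matched to 1 of the 55401 Ensembl gene identifiers of the count table. All 9 passed the filter on low counts that left 16784 genes for testing. RNA-seq was performed on whole mouse embryos at E10.5, with 3 WT libraries and 3 libraries of 5C embryos. In the 5C embryos 5 further copies of *Mir483* stand in tandem in the *Igf2* locus, and *Mir483* encodes the microRNAs miR-483-3p and miR-483-5p. The study's methods describe pools of 2 male embryos per library on a C57BL/6J background, with WT littermates, and its text describes transmission of the array by chimeric fathers. The array sits at the gene's own locus and is carried by cells of all tissues, hedgehog-producing or not. Carrying it does not mean expressing it, since the study reports that *Mir483* expression depends on *Igf2* transcription. Its expression in single tissues was not measured here.

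Hedgehog ligands are secreted proteins that bind the receptor PTCH1 on a receiving cell. PTCH1 without ligand holds SMO inactive. When ligand is bound, SMO acts at the primary cilium and the GLI factors change from repressors to activators, and *Ptch1*, *Gli1* and *Hhip* are transcribed in response. In the midgestation embryo SHH from the notochord, floor plate, gut and posterior limb bud patterns the neural tube, somites and limbs, IHH acts in gut and extraembryonic endoderm, and DHH comes mainly from Schwann cells, endothelium and the gonad.

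Because the array adds copies of a microRNA gene, the seed of each mature microRNA was compared with the 3′ UTRs of the hedgehog genes. The mature sequences are from RefSeq on GRCm38.p6, written 5′ to 3′, with the seed (bases 2 to 8) in capitals. They lie on the minus strand at chr7:142654932-142654952 for miR-483-3p and chr7:142654968-142654989 for miR-483-5p, inside *Igf2*.
miR-483-3p: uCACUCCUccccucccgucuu
miR-483-5p: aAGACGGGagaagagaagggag

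None of the 9 hedgehog genes held a match to either seed in the 3′ UTR of its longest annotated coding transcript. The match letters were AGGAGTG or GGAGTGA for miR-483-3p and CCCGTCT or CCGTCTA for miR-483-5p, in each pair overlapping by 6 bases, and were read on the strand of the transcript. The search covered 20425 bases, from 165 bases in *Gli1* to 6480 bases in *Hhip*. Among 13923 tested genes with an annotated 3′ UTR, whose median length was 1196 bases, 17.8% held a miR-483-3p match and 4.47% a miR-483-5p match. The absence of these letters says nothing of other modes of pairing.

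Matches were present among the wider pathway. Of 89 pathway genes outside the 9 with an annotated 3′ UTR, 15 (16.9%) held a miR-483-3p match and 6 (6.74%) a miR-483-5p match. The 5 genes below carried the longest form of match to miR-483-3p, with an A opposite base 1, and are shown because their expression is given later. Letters in capitals pair with the seed or are that A, and positions are GRCm38.
*Kif3b* (chr2:153330251-153330280, plus strand): ttcccctgaggAGGAGTGAtagcctctttg
*Evc* (chr5:37299319-37299348, minus strand): ccatcgtgtctAGGAGTGAcgtttgaggct
*Iqce* (chr5:140662837-140662866, minus strand): gcttaaagagcAGGAGTGAgccttctgtgt
*Arrb2* (chr11:70440490-70440519, plus strand): cagtgaacgcaAGGAGTGAatgtagagaaa
*Foxl1* (chr8:121130141-121130170, plus strand): agatagcttccAGGAGTGAcagggactctc

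The edited gene and the libraries were checked first. *Mir483* (ENSMUSG00000070140) measured 0.577, 0.429 and 0.319 CPM (read counts scaled to the TMM-adjusted library total) in WT replicates 1 to 3 and 5.15, 4.35 and 2.56 CPM in 5C replicates 1 to 3. Every 5C library was above every WT library, although poly(A) RNA counts over the hairpin do not measure the mature microRNAs. Libraries held 6357343 to 19151368 counts, and 3 counts, taken as the detection floor, corresponded to 0.157 to 0.479 CPM (counting error only). The stated male pools were checked with *Ddx3y*, which is on the Y chromosome. It measured 41.6 to 55.9 CPM in 4 libraries but 0.944 CPM in WT replicate 2 and 0 counts in 5C replicate 2, and *Xist*, a transcript of the inactive X that female cells hold, was at 495 to 914 CPM in all 6 libraries. By *Xist* every library went against pools of males alone, and by *Ddx3y* the second library of both genotypes did. For the hedgehog and other pathway genes, values without this pair are given where they end a call at an unadjusted p under 0.05 or bring one about. *Afp* and the other markers of visceral yolk sac endoderm also varied. Their summed level was 6687, 213 and 485 CPM in the WT libraries, against 149, 148 and 1299 CPM in 5C, with 9 of 12 markers at 3 or more counts in every library and *Apoc2* nearly absent. All 10 markers of embryonic heart, muscle, blood, neural and limb tissue were at 3 or more counts in every library. They summed to 6609 to 9379 CPM in WT and 6110 to 11637 CPM in 5C. Of the 10, 3 had an unadjusted p under 0.05 (2 higher and 1 lower in 5C, adjusted p at least 0.781, edgeR), beside 6.02% of all genes tested. For 4 of the 10 the genotypes did not overlap, beside 11.4% of all genes tested. The granzymes and perforin of decidual killer cells (6 genes) summed to 1.10, 6.01 and 5.90 CPM in WT and were at 11.5, 3.67 and 27.5 CPM in 5C, and 3 of the 4 granzymes tested had an unadjusted p under 0.05 (adjusted p = 0.781 for each, edgeR). The decidual prolactin gene *Prl8a2* was at 5.07 to 43.4 CPM in WT and 8.96 to 31.8 CPM in 5C.

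The 9 genes differed widely in level. Levels were compared between genes per length, as counts per kilobase of annotated exon scaled to a common total (TPM). Averaged over the 6 libraries, *Smo* was the most abundant at 119 TPM, higher than 92.4% of the genes tested. It was followed by *Gli3* at 56.2 TPM, *Ptch1* at 43.0 TPM and *Gli1* at 25.2 TPM. The most abundant ligand transcript, *Shh*, reached 17.7 TPM, near the middle of all genes tested (52.8% were lower). *Gli2* measured 9.32 TPM and *Hhip* 5.49 TPM. *Ihh* at 1.22 TPM and *Dhh* at 1.0 TPM were far below the other members, with 6.33% and 4.67% of tested genes lower. The ranges over the 6 libraries overlapped for *Ihh* and *Dhh* only, so these 2 ligands could not be ordered, while every other neighbouring pair was separated in all 6 libraries. The order of *Gli3* and *Ptch1* depended on the length used: with the longest coding transcript in place of all exons, *Ptch1* was at 60.0 TPM and *Gli3* at 50.2 TPM.

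**Figure D1:**
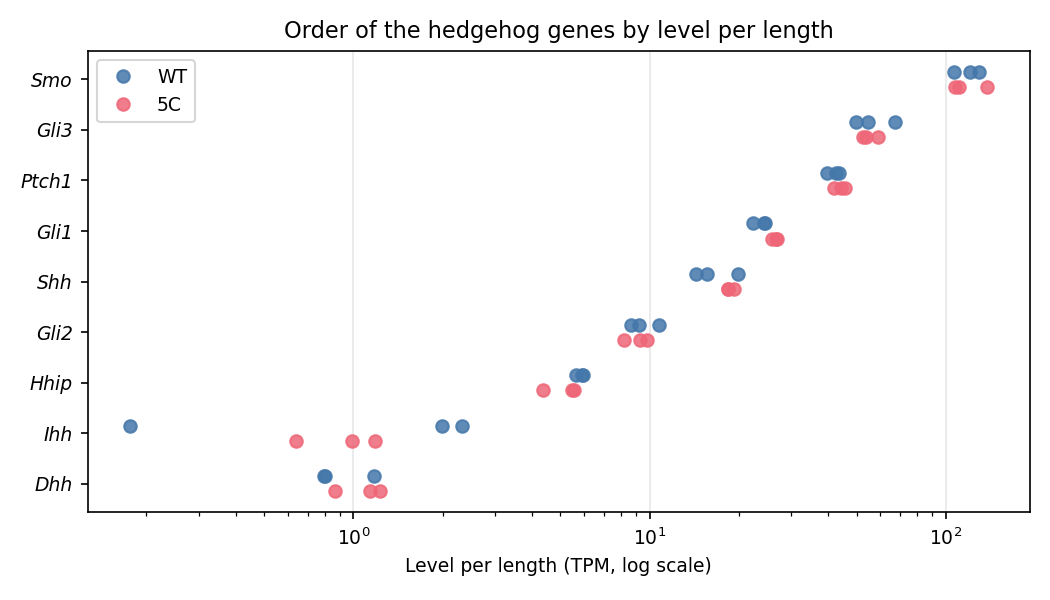
Level per length (TPM, log scale) of the 9 hedgehog genes, with 1 point for each library, WT in blue and 5C in red. *Smo* is highest with a mean of 119 TPM, and only *Ihh* and *Dhh*, near 1 TPM, overlap in range.

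None of the 9 genes was differentially expressed between 5C and WT. Differential expression was defined as an adjusted p under 0.05 with a fold change over 1.5 by edgeR's quasi-likelihood test, with Benjamini-Hochberg adjustment over all 16784 genes. It was met by 0 of the 9, against 0% of all genes tested. At an unadjusted p under 0.05 there were again 0 of the 9, against 6.02% (1011) of all genes. With other tools, DESeq2 called 11 genes and limma-voom 0 genes, and edgeR without a count filter called 319 of 33139 genes, none of them among the 9. The edited gene *Mir483*, 8.29-fold higher in 5C (unadjusted p = 1.01e-05), itself had an adjusted p of 0.169 by edgeR. Of the 9 fold changes 4 were positive and 5 negative, with a median log2 fold change of -0.06, beside -0.00 for all genes tested. For 7 of the 9 genes the 95% interval of the fold change lay wholly within 1.5-fold in either direction. *Ihh* and *Dhh*, the least abundant, had intervals that reached further. The *Dhh* interval was worked back from its p-value, which can make it too wide. The libraries are not stated to come from separate litters, so p-values measure the spread between these libraries. In whole embryos, fewer cells of a type and less RNA per cell cannot be told apart.

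**Figure D2:**
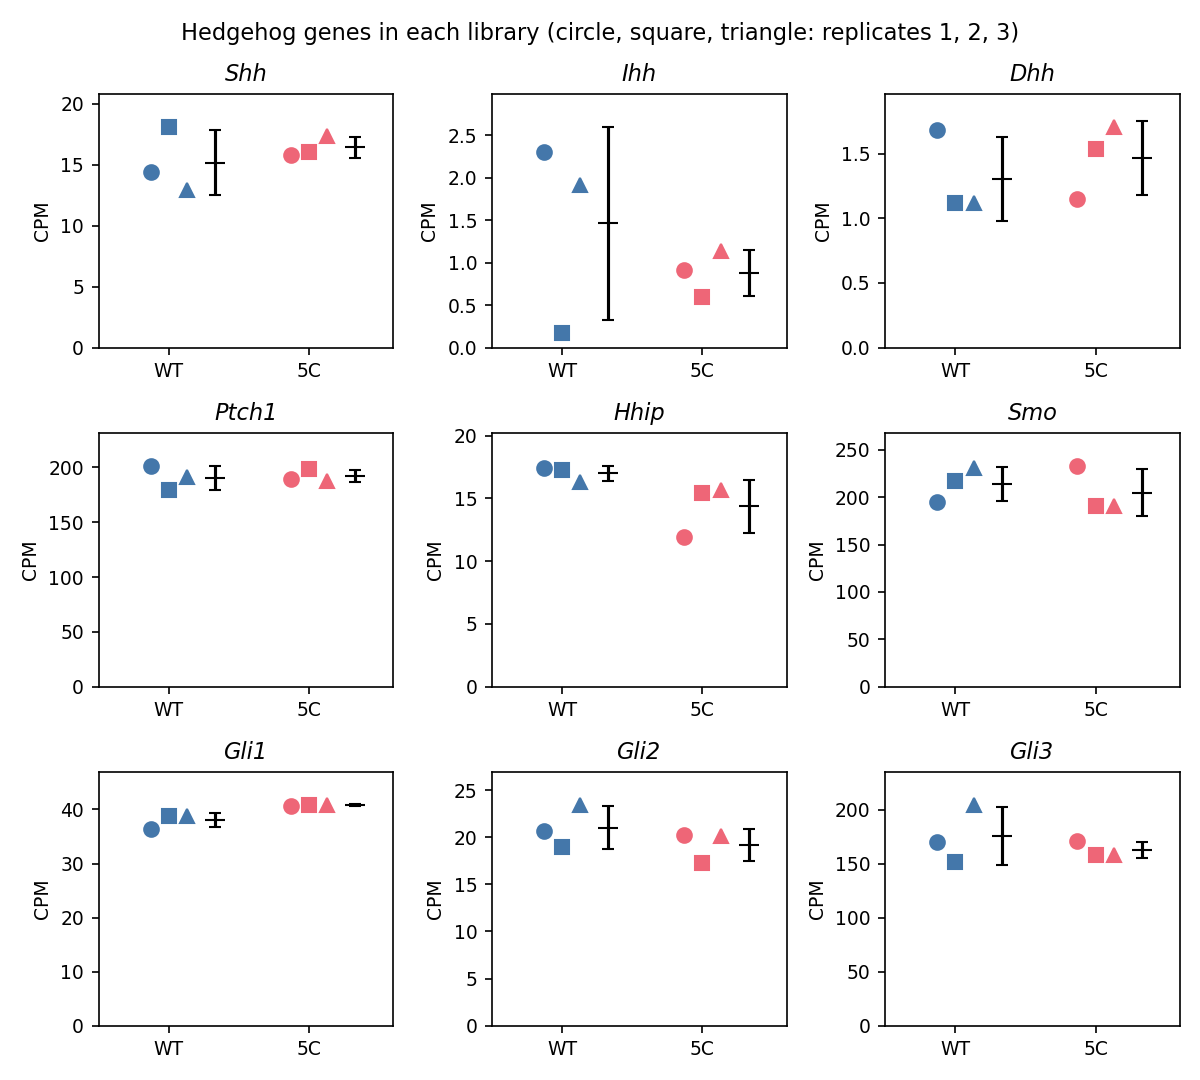
CPM of each hedgehog gene in each library, with circle, square and triangle for replicates 1, 2 and 3, and the mean and SD of 3 libraries in black. WT and 5C points overlap in 7 of 9 panels, and only *Gli1* and *Hhip* are separated.

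The ligands were examined first. *Shh* (ENSMUSG00000002633, minus strand, chr5:28456815-28467256 in GRCm38), the main ligand of neural tube and limb patterning, measured 14.4, 18.1 and 12.9 CPM in the WT libraries, against 15.8, 16.1 and 17.4 CPM in 5C. The 5C values lay inside the WT range, and the means were 15.2 ± 2.67 and 16.4 ± 0.837 CPM (SD, n = 3). The log2 fold change was 0.11 (SE 0.14, adjusted p = 0.883 by edgeR), with a 95% interval from -0.20 to 0.41. Summed markers of notochord and floor plate, which produce SHH, were at 182, 166 and 180 CPM in the WT libraries, against 177, 170 and 162 CPM in 5C. Of these 8 markers 7 were at 3 or more counts in every library, and *Noto* had 15 counts in all 6 libraries together. On the opposite strand 807 of the 2847 exonic bases of *Shh* lie under other annotated genes, and the strand setting of the deposited counts is not given in the sources used here, so part of its count is uncertain.

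*Ihh* (ENSMUSG00000006538, minus strand, chr1:74945315-74951672) was the most variable of the 9. It measured 2.31, 0.172 and 1.91 CPM in the WT libraries, against 0.909, 0.598 and 1.14 CPM in 5C, from 44, 2 and 12 counts and from 15, 7 and 16 counts. WT replicate 2 was lowest and the other WT libraries were highest, so that the 5C libraries lay between them. Its counting error alone (exact Poisson, 95%) spanned 0.0208 to 0.620 CPM in WT replicate 2 and 1.68 to 3.10 CPM in WT replicate 1. The WT mean was 1.46 ± 1.14 CPM and the 5C mean 0.882 ± 0.272 CPM (SD, n = 3). The log2 fold change was -0.74 (SE 0.62, adjusted p = 0.814 by edgeR), with an interval from -2.12 to 0.64. This value rested on single WT libraries. Without WT replicate 1 it was 0.09 (adjusted p = 0.998, edgeR), and without WT replicate 2 it was -1.27 (unadjusted p = 0.00449, adjusted p = 0.387, edgeR). Without the second library of both genotypes it was -1.08 (unadjusted p = 0.0141, adjusted p = 0.837, edgeR).

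Over the 6 libraries, the *Ihh* pattern was compared with those of 134 other listed genes by the root mean square difference of log2 CPM centred on each gene's mean. *Hoxd12*, a posterior limb and hindgut homeobox gene, was nearest at 0.39, followed by *T*, the tailbud and notochord factor brachyury, at 0.56 and the embryonic globin *Hba-x* at 0.70, beside 0.97 for the size of the *Ihh* pattern itself. *Hoxd12* measured 5.51, 1.12 and 3.99 CPM in the WT libraries, against 2.42, 2.82 and 4.41 CPM in 5C, and *T* measured 5.88, 1.72 and 6.54 CPM in the WT libraries, against 2.06, 3.50 and 6.62 CPM in 5C. All 3 genes were lowest in WT replicate 2. The *Ihh* value there came from 2 counts, below the floor of 3 counts, and was the largest departure in the *Ihh* pattern (-1.75). The nearness of these genes to *Ihh* therefore leans on that value. The summed yolk sac markers given above were, like *Ihh*, highest in WT replicate 1, but lowest in 5C replicates 1 and 2. Gut endoderm markers, all 8 of them at 3 or more counts in every library, summed to 174, 100 and 102 CPM in the WT libraries, against 94.5, 91.7 and 118 CPM in 5C. The part of yolk sac or gut tissue in the *Ihh* values was not tested.

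**Figure D3:**
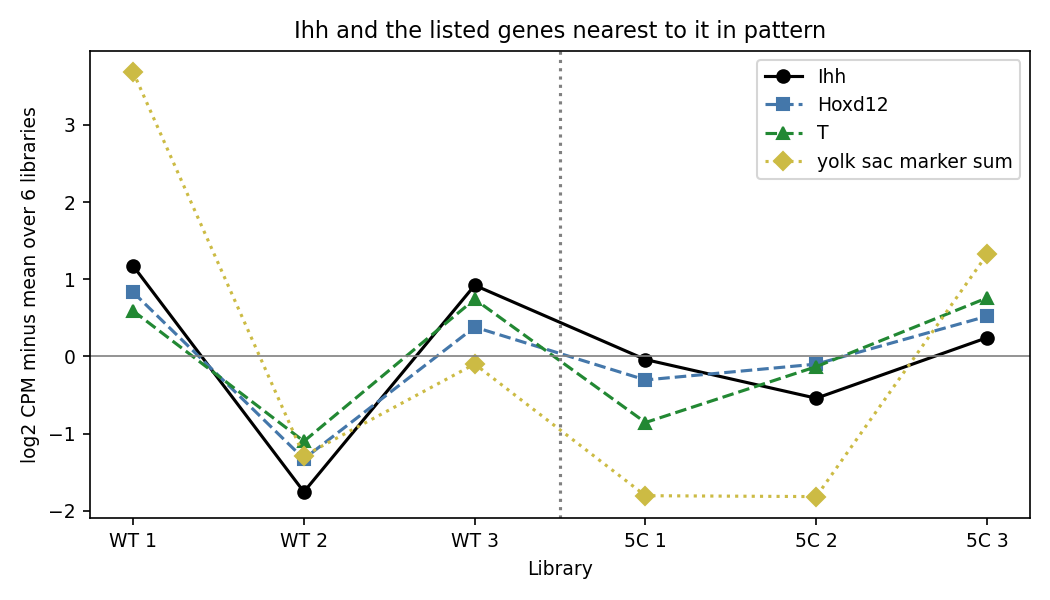
Log2 CPM minus the mean over 6 libraries for *Ihh*, *Hoxd12*, *T* and the sum of 12 yolk sac markers, by library. *Ihh* (2 counts there), *Hoxd12* and *T* are lowest in WT replicate 2. The yolk sac sum is highest in WT replicate 1 and lowest in 5C replicates 1 and 2.

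*Dhh* (ENSMUSG00000023000, minus strand, chr15:98891152-98898540) measured 1.68, 1.12 and 1.12 CPM in the WT libraries, against 1.15, 1.54 and 1.71 CPM in 5C, from 7 to 32 counts a library. Both genotypes covered nearly the same range. The log2 fold change was 0.09 (SE 0.67, adjusted p = 0.993 by edgeR), with an interval from -1.22 to 1.41. This SE and interval were worked back from the unadjusted p-value, which can make them too wide, so they set no detection limit. On the same strand 546 of its 4399 exonic bases lie under *Rhebl1*, and on the opposite strand 1107 bases lie under another gene, which makes its count uncertain. Endothelial and Schwann lineage markers, the lineages that express *Dhh*, summed to 241 to 256 CPM in the WT libraries, against 238 to 257 CPM in 5C. Of these 6 markers 5 were at 3 or more counts in every library, and the sum does not separate the endothelial from the Schwann part.

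The receptor and the ligand-binding protein are both products of the pathway and antagonists of it. *Ptch1* (ENSMUSG00000021466, minus strand, chr13:63508328-63573598) measured 201, 179 and 191 CPM in the WT libraries, against 190, 199 and 188 CPM in 5C. The genotypes overlapped completely, and over all 6 libraries *Ptch1* had the smallest coefficient of variation of the 9 genes, 4.14%. The fold change was 1.01 with a 95% interval from 0.910 to 1.12 (adjusted p = 0.989, edgeR).

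*Hhip* (ENSMUSG00000064325, minus strand, chr8:79965851-80058006), which binds hedgehog ligands at the cell surface, measured 17.4, 17.3 and 16.3 CPM in the WT libraries, against 11.9, 15.5 and 15.7 CPM in 5C. Every 5C library was below every WT library, and 5C replicate 1 was the lowest. The WT mean was 17.0 ± 0.621 CPM and the 5C mean 14.4 ± 2.09 CPM (SD, n = 3), a fold change of 0.841 with an interval from 0.687 to 1.03. The difference did not pass the test (log2 fold change -0.25, SE 0.13, unadjusted p = 0.0852, adjusted p = 0.781, edgeR). Without 5C replicate 1 the log2 fold change was the smallest in size, -0.13. Together with *Gli1*, 2 of the 9 genes had genotypes that did not overlap, in opposite directions, against 11.4% of all genes tested.

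*Smo* (ENSMUSG00000001761, plus strand, chr6:29735503-29761365), the transducer that *Ptch1* holds in check, measured 195, 217 and 231 CPM in the WT libraries, against 233, 190 and 190 CPM in 5C. The genotypes overlapped, with both the highest and the lowest value in 5C. The log2 fold change was -0.06 (SE 0.10, adjusted p = 0.903, edgeR), with an interval from -0.28 to 0.15.

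Of the GLI factors, *Gli1* (ENSMUSG00000025407, minus strand, chr10:127329882-127341974), an activator that is itself transcribed in response to the pathway, measured 36.5, 38.8 and 38.8 CPM in the WT libraries, against 40.7, 40.9 and 40.9 CPM in 5C. Every 5C library was above every WT library, by a small margin. The means were 38.0 ± 1.34 and 40.8 ± 0.127 CPM (SD, n = 3), a 1.08-fold difference with an interval from 0.958 to 1.21 (unadjusted p = 0.19, adjusted p = 0.794, edgeR). Its pattern over the libraries was nearest to the ciliary genes *Tmem67* (0.04) and *Ift52* (0.04) and to the cell cycle gene *Ccnd1* (0.04), beside 0.06 for the *Gli1* pattern itself. The *Shh* pattern was nearest to the ciliary genes *Kif3a* and *Mks1* (both 0.09) and the endoderm factor *Sox17* (0.09), beside 0.16 for *Shh* itself. For both genes the whole pattern was small, so these neighbours are little more than genes with little variation.

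Between 175 and 327 exonic bases of *Gli1*, *Gli3* and *Hhip* lie under genes on the opposite strand, with the same uncertainty as for *Shh*.

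*Gli2* (ENSMUSG00000048402, minus strand, chr1:118834132-119053619), the main activator of the response, measured 20.6, 19 and 23.5 CPM in the WT libraries, against 20.2, 17.2 and 20.1 CPM in 5C. The genotypes overlapped, and the log2 fold change was -0.12 (SE 0.12, adjusted p = 0.837, edgeR). *Gli3* (ENSMUSG00000021318, plus strand, chr13:15463235-15730026), the main repressor, measured 171, 152 and 205 CPM in the WT libraries, against 171, 158 and 159 CPM in 5C. WT replicate 3 stood above the other 5 libraries, which lay between 152 and 171 CPM, and without it the log2 fold change of -0.11 (SE 0.10, adjusted p = 0.83, edgeR) became 0.0041. The log2 ratio of *Gli1* to *Gli3*, in CPM, was -2.23, -1.97 and -2.40 in WT and -2.07, -1.95 and -1.96 in 5C. The ratio was lowest in WT replicate 3, where *Gli3* was highest.

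**Figure D4:**
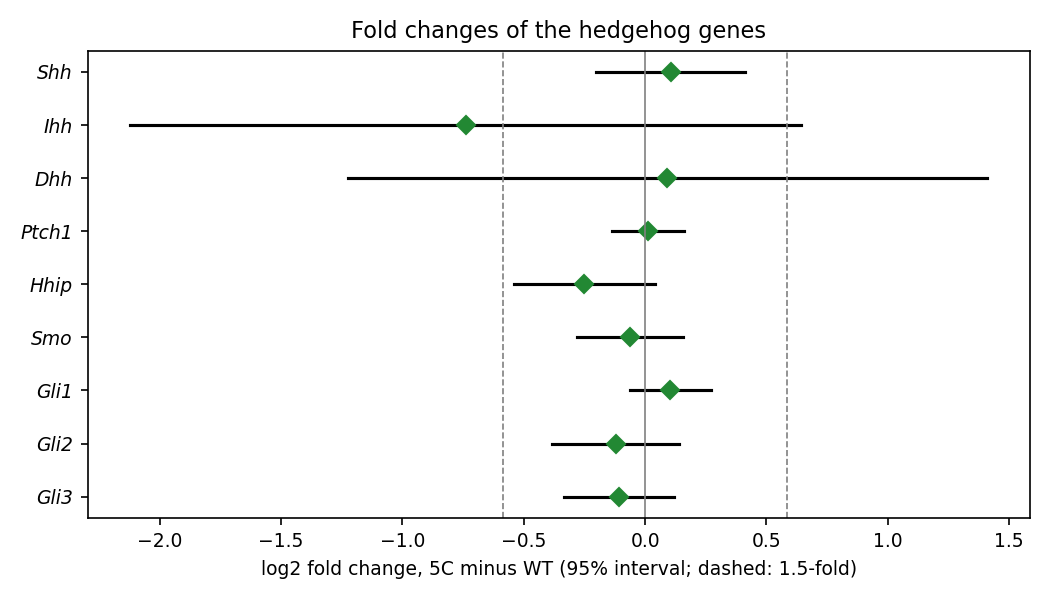
Log2 fold change of each hedgehog gene (5C minus WT) with its 95% interval, and dashed lines at 1.5-fold. The intervals of 7 genes lie between the dashed lines, and those of *Ihh* and *Dhh* reach beyond them. The *Dhh* interval was worked back from its p-value and can be too wide.

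The rest of the pathway was described by 6 further lists of 90 genes, all of them tested. None passed the adjusted threshold (adjusted p from 0.781 to 1, edgeR), and 7 had an unadjusted p under 0.05, which is 7.78% beside 6.02% of all genes. Of the 90, 50 had positive and 40 negative fold changes, with a median log2 fold change of 0.01. Without single libraries the count of 7 moved to 4 (without WT replicate 1), 13 (without WT replicate 2) or 3 (without 5C replicate 2), while the share of all genes moved to 4.63%, 10.4% and 2.62%. The pathway counts thus moved with those of all genes. Without the second library of both genotypes 6 of the 90 had an unadjusted p under 0.05, beside 5.11% of all genes, and 3 of these were not among the 7. They were the signal transduction genes *Sufu* (-0.45), *Gsk3b* (-0.23) and *Mgrn1* (-0.30), named after their values were seen (log2 fold changes, unadjusted p = 0.0211, 0.0279 and 0.0442, adjusted p = 0.837 for each, edgeR).

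Among 9 genes of ligand processing and release, 3 had positive and 6 negative fold changes (median log2 fold change -0.07). *Hhat*, the acyltransferase that adds palmitate to hedgehog ligands, measured 11.6, 10.6 and 11.8 CPM in the WT libraries, against 9.09, 8.71 and 9.25 CPM in 5C, without overlap. Its log2 fold change was -0.33 (unadjusted p = 0.0249, adjusted p = 0.781, edgeR), and -0.35 (unadjusted p = 0.072) without the second library of both genotypes. The glypican *Gpc6* (-0.19) and the ligand release factor *Scube1* (-0.10) had genotypes that overlapped.

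Of 5 genes in the co-receptor list, the median log2 fold change was -0.03, and *Lrp2* had the largest difference. *Lrp2*, the endocytic receptor megalin, measured 245, 80.1 and 94.1 CPM in the WT libraries, against 74.3, 56.1 and 93.5 CPM in 5C. The genotypes overlapped, and WT replicate 1 alone was high, as were its yolk sac markers. The log2 fold change of -0.92 (unadjusted p = 0.0347, adjusted p = 0.781, edgeR) fell in size to -0.21 (unadjusted p = 0.253, edgeR) without WT replicate 1. *Lrp2* is also strongly expressed in yolk sac endoderm, and the part of that tissue in its values was not tested. *Gas1*, a co-receptor anchored at the cell surface, had a log2 fold change of 0.10, and its genotypes overlapped.

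Of 24 signal transduction genes 9 had positive and 15 negative fold changes (median -0.02). An unadjusted p under 0.05 was reached by 3 of them (12.5%, beside 6.02% of all genes tested), and these 3 were higher in 5C. *Efcab7*, part of the complex that anchors EVC proteins at the base of the cilium, measured 8.87, 11.5 and 8.77 CPM in the WT libraries, against 14.0, 13.9 and 16.4 CPM in 5C. Its genotypes did not overlap, and its log2 fold change was 0.60 (SE 0.15, 1.52-fold, unadjusted p = 0.00236, adjusted p = 0.781, edgeR). Leaving out any 1 library gave 0.52 to 0.74. With GC-content offsets the value for *Efcab7* was 0.44 (unadjusted p = 0.0286, edgeR), and with these offsets and the replicate block 0.45 (unadjusted p = 0.0518, edgeR). *Cul3*, a ubiquitin ligase scaffold that acts on GLI factors, and *Csnk1a1*, a kinase that phosphorylates them, had log2 fold changes of 0.19 and 0.15 (unadjusted p = 0.0323 and 0.0488, adjusted p = 0.781 for both, edgeR). With GC-content offsets these were 0.091 and 0.096 (unadjusted p = 0.174 and 0.0868, edgeR), and without the second library of both genotypes 0.21 and 0.18 (unadjusted p = 0.105 and 0.0936, edgeR). Without 5C replicate 3 the value for *Cul3* was 0.12 (unadjusted p = 0.131, edgeR).

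Of 23 ciliary genes 17 had positive and 6 negative fold changes (median 0.07). *Kif3b*, a subunit of the ciliary transport motor kinesin-II, was the only one with an unadjusted p under 0.05. It measured 64.7, 60.6 and 65.3 CPM in the WT libraries, against 55.6, 57.5 and 53.0 CPM in 5C, without overlap, a log2 fold change of -0.20 (SE 0.07, unadjusted p = 0.0209, adjusted p = 0.781, edgeR). Without WT replicate 1 the value was -0.18 (unadjusted p = 0.0622, edgeR), and without 5C replicate 3 it was -0.17 (unadjusted p = 0.068, edgeR). With GC-content offsets and the replicate block it was -0.19 (unadjusted p = 0.0543, edgeR). The ciliary genes *Fuz* and *Mks1* were both at 0.19.

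*Kif3b* was also 1 of the 5 genes whose site for miR-483-3p is printed above. The others did not reach an unadjusted p of 0.05 by edgeR. Their log2 fold changes were -0.18 for *Evc*, which transmits the SMO signal at the cilium, 0.01 for its partner *Iqce*, which holds 3 matches, -0.01 for the arrestin *Arrb2* and -0.21 for *Foxl1*, a gut mesenchyme factor. Over the 15 pathway genes with a miR-483-3p match, 9 had negative and 6 positive fold changes. Their median log2 fold change was -0.07, beside 0.03 for the pathway genes without a match. For the 6 genes with a miR-483-5p match the median was -0.08, beside 0.01 without. These values were not tested.

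Of 23 genes induced by hedgehog signalling in the neural tube, somites, limb and gut, 16 had positive and 7 negative fold changes (median 0.06). *Bcl2*, the cell survival factor, measured 39.9, 38.8 and 42.4 CPM in the WT libraries, against 43.9, 53.6 and 46.4 CPM in 5C, without overlap, a log2 fold change of 0.25 (unadjusted p = 0.0238, adjusted p = 0.781, edgeR). It rested on 5C replicate 2: without that library it was 0.16 (unadjusted p = 0.127, edgeR), and without the second library of both genotypes 0.14 (unadjusted p = 0.234, edgeR). *Pax1*, the sclerotome factor, measured 6.87 to 10.4 CPM in the WT libraries, against 5.88 to 6.66 CPM in 5C, without overlap (log2 fold change -0.36, unadjusted p = 0.084, edgeR), and *Foxf1*, a gut mesenchyme target, had a log2 fold change of -0.14. Floor plate *Foxa2* (-0.11) and motor neuron progenitor *Olig2* (0.06) were among the targets with overlapping genotypes. Of 7 dorsal neural tube genes, which hedgehog signalling represses, 4 had positive and 3 negative fold changes with a median of 0.00. Among them *Msx2*, *Gdf7* and *Wnt1* were at -0.15, -0.36 and -0.12, and the other 4 were between 0.00 and 0.03. Genotypes overlapped for each of the 7, and *Gdf7* had only 5 to 21 counts a library.

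**Figure D5:**
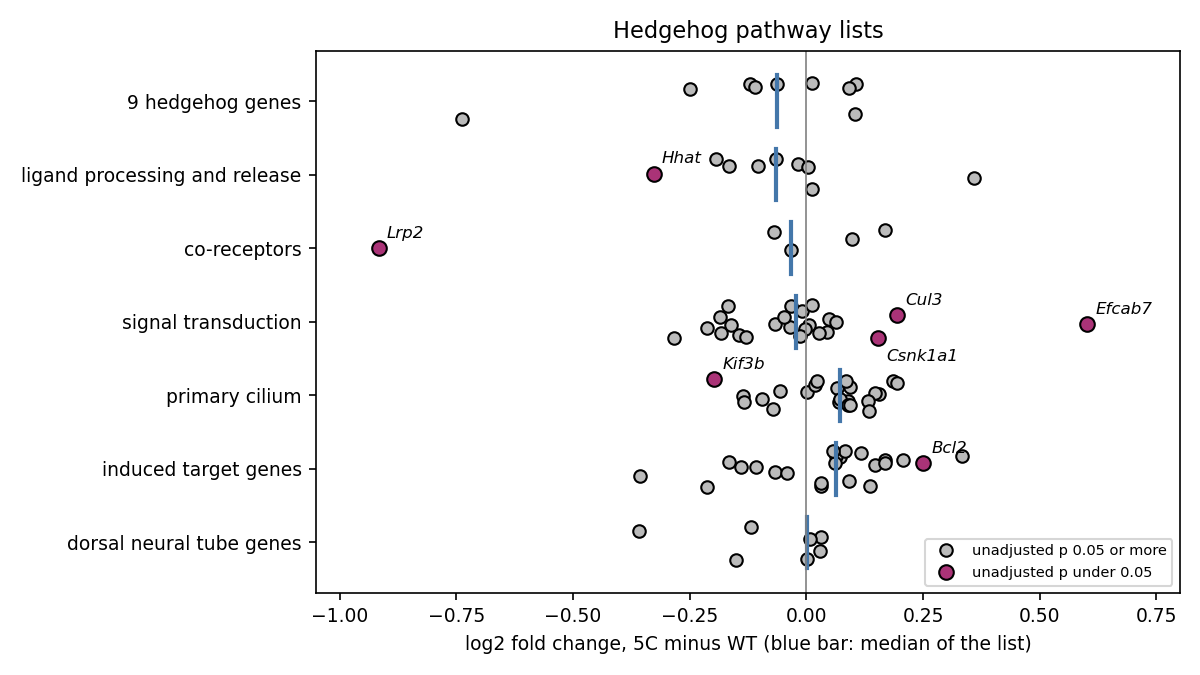
Log2 fold change (5C minus WT) of each gene in the 9 hedgehog genes and 6 further pathway lists, with the list median as a blue bar. Purple points are the 7 genes with an unadjusted p under 0.05, and list medians run from -0.07 to 0.07.

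Promoters of 7 of the 9 genes were available from RefSeq (GRCm38.p6), from 250 bases before to 50 bases after the start of transcription (not *Shh* or *Gli1*). The consensus GLI motif GACCACCCA and its shorter form ACCACCCA, which is contained in it, were searched on both strands and were in none of these 7 windows. Of 32851 promoter windows of this length, 0.253% held the first and 1.48% the second.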

How the data were processed

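RNA-seq was analysed for 3 WT and 3 5C libraries of whole E10.5 embryos, grouped by the genotype in the sample titles. Per the study's methods, the authors made TruSeq Stranded mRNA libraries, sequenced them as single-end reads, aligned them with STAR to GRCm38 and deposited raw counts per Ensembl gene, without normalization. Which strand column was taken is not given in the sources used here. Symbols, positions and 3′ UTRs came from GENCODE M21, which held 55141 of 55401 identifiers.

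The deposited counts were analysed with edgeR 4.0.16 in R 4.3.3: filterByExpr on genotype, TMM scaling (factors 0.988 to 1.02), and the legacy quasi-likelihood F-test of 5C against WT, two-sided, with Benjamini-Hochberg adjustment over all genes tested. CPM used TMM totals. The SE was the log2 fold change divided by the square root of F, except for *Dhh*, where the test rested on its Poisson bound and the SE was taken from that p. An SE taken in this way can be too large when p is high. Total counts and floors are given in the report. The members and lists, the named genes (the 9, *Mir483*, the 3 smallest p of each pathway list, of which 1 gene is not reported here, the nearest patterns) and the alternatives were chosen with earlier results of these data known; *Foxa2*, *Olig2* and the genes with printed sites were named after their values were seen. The test was checked on simulated counts drawn with trended and with gene-wise dispersions. With gene-wise dispersions the share of false calls exceeded the nominal level for edgeR, limma-voom and DESeq2; the trended setting was added after that result was seen. No gene is called by the main test here.

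No 2 libraries of the same genotype agreed within sampling noise (chi-square per gene at least 5.76). Alternatives were other scalings, filters and tests (DESeq2 1.42.0, limma-voom in limma 3.58.1), GC offsets, a replicate block and libraries left out.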

Additional observations from a re-analysis of the deposited data

How the results depend on the processing

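All 9 genes kept 0 calls under the 19 alternatives run (*Ihh* and *Dhh* had no test when at least 10 counts were required in every library). At an unadjusted p under 0.05 there was 1 of the 9 without a count filter (*Ihh*), without replicate 2 of both genotypes (*Ihh*), with GC-content offsets (*Hhip*) and with GC-content offsets and the replicate block (*Hhip*). Leaving out single libraries gave 0 to 1 of the 9, and for the other pathway lists 3 to 13 of 90. With GC-content offsets and the replicate block the pathway lists had 3. Without a count filter 2 pathway genes were called, *Lrp2*, which rests on WT replicate 1, and *Efcab7*, beside 319 of 33139 genes (0.963%). The log2 fold change changed sign for *Ihh* without WT replicate 1 (leave-one-out range -1.27 to 0.087), for *Gli3* without WT replicate 3 (range -0.20 to 0.0041), for *Dhh* without WT replicate 2 (-0.031) or 5C replicate 3 (range -0.043 to 0.38) and without both second libraries (-0.062), and for *Ptch1* without WT replicate 2 or 5C replicate 2 (-0.019, range -0.031 to 0.054) and without both second libraries (-0.057). With the longest coding transcript as length, levels were 13.4 TPM for *Shh*, 0.790 for *Dhh*, 60.0 for *Ptch1*, 134 for *Smo*, 7.33 for *Gli2* and 4.17 for *Hhip*. Apart from the length and filters, the cause was not tested.

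Same-numbered libraries did not deviate together (correlations -0.174, 0.202 and -0.166), so the numbers are not shown to pair them. With the replicate block 782 genes had an unadjusted p under 0.05, against 1011, and 0 of the 9 did. Depth limits *Ihh* and *Dhh*, with 2 to 44 counts a library.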
